A study of Mus musculus with 20 samples.

Results

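This account describes how the mRNAs of E14 cells, a pluripotent mouse embryonic stem cell line grown with LIF, were distributed between heavy polysomes and the lighter part of a sucrose gradient under a control siRNA. It rests on 4 of the 20 libraries of the series, chosen by their labels: control siRNA, heavy pool (2 libraries), and control siRNA, light pool (2 libraries). All 8084 transcripts listed in those libraries were used. The cells were wild type, carried no epitope tag, and were transfected with MISSION siRNA Universal Negative Control 2. Cycloheximide, which holds elongating ribosomes on mRNA, was given at 100 µg/ml for 1 min before harvest. The heavy pool joined the fractions with at least 4 ribosomes per mRNA. The light pool joined everything else, from free ribonucleoproteins, free subunits and single ribosomes to polysomes of at most 3 ribosomes. The comparison libraries were the same pools from wild-type E14 cells given an Rpl10a siRNA (4 libraries) and ribosome footprints of 3 E14 lines without siRNA. Each of these lines carries a tag on 1 allele: 3xFLAG-Rpl10a, Rps25-3xFLAG or Rpl22-3xHA.

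An mRNA that is initiated often gathers several ribosomes and sediments deep in the gradient, while an mRNA that is repressed, stored or rarely initiated stays near the top. A short coding sequence also keeps an mRNA in lighter fractions, since it has room for few ribosomes. The position in the gradient therefore reports how many ribosomes an mRNA carries, not how densely they are packed. Ribosome profiling counts footprints per length of transcript, a quantity that rises both with the ribosomes on each mRNA and with the amount of that mRNA. Footprints were not divided by an mRNA level here. Embryonic stem cells are known for a low overall rate of protein synthesis compared with their differentiated progeny.

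The deposited values of the RNA-seq libraries are headed RPM, a unit of reads scaled to library size, and summed to between 1008006 and 1067209 per control library, with medians of 43.5 to 45.8. Read depth is unknown, so no counting interval is given. Pearson correlations of log2(RPM + 1) were 0.987 between the light replicates and 0.987 between the heavy replicates, and from 0.884 to 0.902 between a heavy and a light library. Transcripts are listed by UCSC identifier, and 0 of them were found in the reference tables at hand, so genes are not named here. The usual marker genes of stem cells and the level of Rpl10a were not analysed here. Whether the replicates came from separate cultures is not stated, and a p-value here measures the spread between libraries that may differ only technically.

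Ribosome loading differed widely between mRNAs. On the log2(RPM + 1) scale, 2266 of 8084 transcripts (28.0%) were higher in the heavy pool and 2134 (26.4%) were higher in the light pool (limma, Benjamini-Hochberg adjusted p below 0.05). The contrast, heavy minus light, had its 5th percentile at −1.34, its quartiles at −0.53 and 0.51, and its 95th percentile at 1.32, with a median SE of 0.16 for a single transcript. Each pool was scaled to about the same total, so a contrast of 0 marks an mRNA with an equal share of both pools, and the amount of mRNA in each pool was not measured. Both heavy libraries were above both light libraries for 3147 transcripts (38.9%), and both were below for 3356 (41.5%).

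Replicates gave much the same order. Subtracting the light library from the heavy library of the same number gave contrasts whose sign was the same in both replicates for 7126 transcripts (88.1%). Across transcripts these contrasts correlated with r = 0.945, and with r = 0.829 when the replicate numbers were crossed; both are descriptions over 8084 transcripts. Of the 920 transcripts at or above 1 by replicate 1 alone, 702 were also there by replicate 2 alone, and their median in replicate 2 was 1.29. Of the 964 at or below −1 by replicate 1, 628 were there by replicate 2, with a median of −1.17. The strongly light side was thus somewhat larger in replicate 1 than in replicate 2, with 964 against 727 transcripts.

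**Figure D1:**
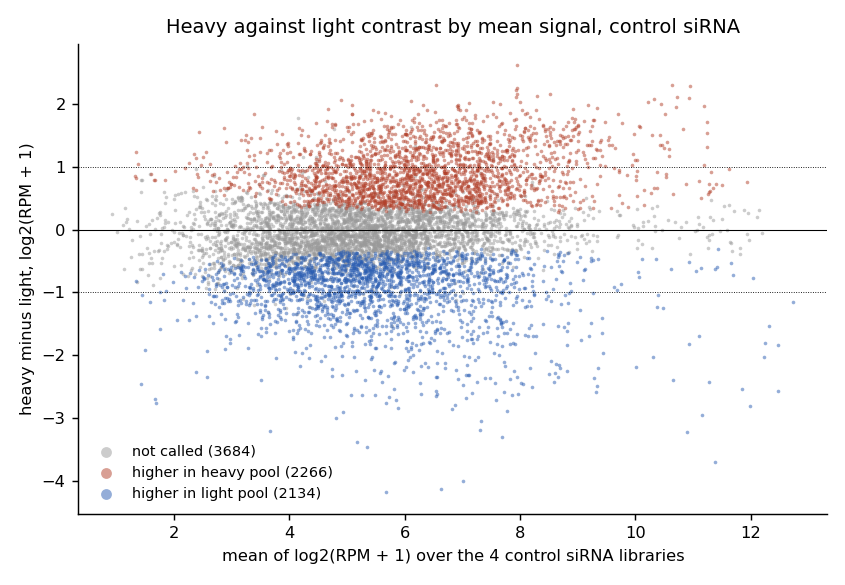
Heavy minus light contrast (y axis, log2(RPM + 1) scale) against the mean of log2(RPM + 1) over the 4 control siRNA libraries (x axis), with 1 point per transcript coloured by the limma call. The dotted lines mark 2-fold differences, and the light side reaches −4.19 while the heavy side ends at 2.62.

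The ends of the distribution were unequal. At least 2-fold differences were about as frequent on either side, with 858 transcripts at or above 1 and 820 at or below −1. At least 4-fold differences lay mostly on the light side, with 121 transcripts at or below −2 against 20 at or above 2. The imbalance was there under each pseudocount and scaling tried, with 98 to 131 transcripts on the light side and 10 to 30 on the heavy side. All 121 and all 20 were called, next to 54.4% of all transcripts that were called on either side. None had overlapping heavy and light libraries, next to 38.9% of all transcripts without overlap toward heavy and 41.5% toward light. The choice of these transcripts by their contrast in the same libraries favours both. The fold is on the log2(RPM + 1) scale, which understates differences of transcripts with low values.

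The strongly light group held a large part of its pool. Its 121 transcripts made up 11.5% of the summed RPM in both light libraries, and 1.80% and 1.96% in the heavy libraries. Within the group the first light library ran from 5.8 through a median of 277.3 to 13872.9 RPM, and the second from 4.8 through 257.5 to 13905.5. In the heavy libraries the medians were 43.1 and 48.1 RPM, with the highest values at 2146.9 and 2612.2. Read signal of every size was thus present, although 57 of the 121 lay in the quintile with the highest mean level. The 20 strongly heavy transcripts held 0.627% and 0.661% of the light libraries and 2.82% and 2.73% of the heavy ones, and 17 of them lay in that quintile.

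Sorting all transcripts into 5 classes by their contrast shows how the pools were composed. The 820 transcripts at or below −1, which are 10.1% of those listed, held 25.3% and 24.8% of the light libraries but 6.48% and 6.89% of the heavy ones. The 858 at or above 1, which are 10.6%, held 10.1% and 10.2% of the light libraries and 27.2% and 27.1% of the heavy ones. Near balance, the 3916 transcripts between −0.5 and 0.5 held 39.5% and 39.9% of the light and 38.6% and 38.7% of the heavy libraries. Scaling between libraries moves transcripts between classes, with 700 to 902 at or below −1 and 770 to 998 at or above 1 under the other scalings. The shares were formed from the same values that set the classes and are a description.

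**Figure D2:**
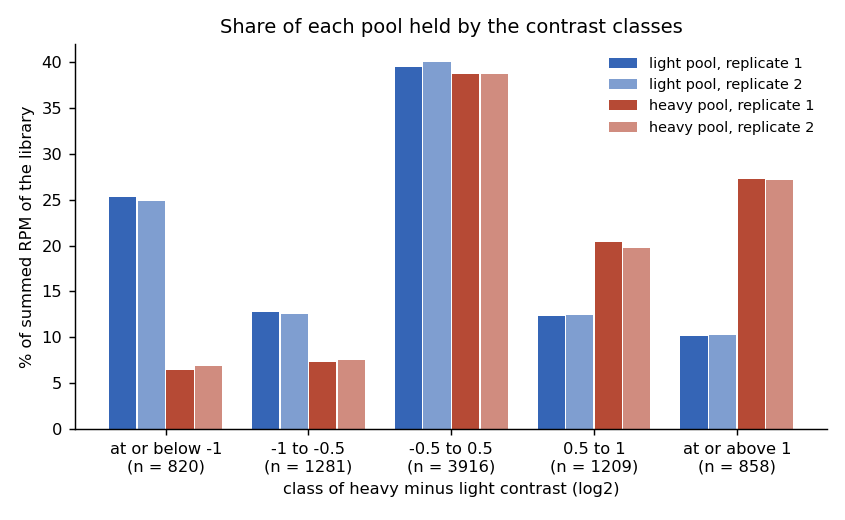
Share of the summed RPM of each control siRNA library (y axis, %) held by 5 classes of the heavy minus light contrast (x axis, log2), with 1 bar per library. The class at or below −1 holds 25.3% and 24.8% of the light libraries and 6.48% and 6.89% of the heavy ones.

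The mean level and the contrast moved together, but both were formed from the same control libraries. A wider spread of log values in the heavy than in the light libraries can by itself produce such a relation. The trend and the call shares by level are therefore a description, and a dependence of ribosome loading on level was not tested. In the quintile of transcripts with the lowest mean level, the median contrast was −0.24 (−0.20 and −0.25 in the replicates), and 175 transcripts (10.8%) were called heavier against 420 (26.0%) lighter. In the highest quintile the median was 0.26 (0.26 in both replicates), with 734 (45.4%) called heavier and 389 (24.1%) lighter. Heavy calls thus became more frequent with level while light calls kept a similar share in all 5 quintiles, between 24.1% and 29.6%. RPM is not scaled by transcript length, so the quintiles order read signal, not mRNA copies. The lean was much smaller under quantile normalization, where the lowest and highest quintiles had medians of −0.04 and 0.07, and the precision was lower at low levels, with a median SE of 0.20 in the lowest and 0.13 in the highest quintile. The spread also widened with level, from an SD of 0.65 in the lowest to 1.00 in the highest quintile.

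By the naming rule, the transcripts with the largest called contrasts among those at or above the median level were uc012dmm.1 and uc009ffc.2 on the heavy side and uc008azq.2 and uc008nzf.1 on the light side. uc012dmm.1 stood at 96.0 and 102.2 RPM in the light libraries and at 630.8 and 599.7 RPM in the heavy ones. The heavy libraries stood 6.16-fold above the light ones on the log2(RPM + 1) scale, a contrast of 2.62 (SE 0.11, limma adjusted p = 8.46e-06). uc009ffc.2 stood at 39.8 and 42.4 RPM in the light and at 192.6 and 222.5 RPM in the heavy libraries, a contrast of 2.31 (SE 0.18, limma adjusted p = 2.45e-05). On the other side, uc008azq.2 stood at 232.6 and 202.2 RPM in the light libraries and at 12.1 and 9.9 RPM in the heavy ones. Its light values were 18.2-fold the heavy ones on the log2(RPM + 1) scale (contrast −4.19, SE 0.16, limma adjusted p = 7.75e-06). uc008nzf.1 stood at 389.1 and 438.7 RPM in the light and at 18.7 and 27.0 RPM in the heavy libraries, 17.6-fold apart (contrast −4.14, SE 0.23, limma adjusted p = 1.05e-05). The heavy libraries of uc008nzf.1 were the most scattered of these values, and its groups remained far apart. Each of the 4 contrasts kept its direction in all 22 other settings tried, which their choice as the largest called contrasts favours.

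In the tagged lines, which share no library with the polysome pools, footprint density was higher on the heavy side, with overlap between the classes. In transcripts at or above 1, the median footprint density was 74.3 and 77.1 RPKM, which is scaled to transcript length and library size, in the total libraries of the Rpl10a line. It was 76.0 and 75.6 RPKM in the Rps25 line and 81.5 and 81.8 RPKM in the Rpl22 line. In transcripts at or below −1 the medians were 17.2 and 16.9, 17.5 and 17.6, and 18.2 and 18.0 RPKM in the same order. The difference between these class medians was 2.08 ± 0.04 on the log2(RPKM + 1) scale (SD over 6 libraries). The lowest densities were not at the light end: transcripts between −1 and −0.5 had medians of 14.8 to 17.0 RPKM, below the class at or below −1 in all 6 libraries. Transcripts between −0.5 and 0.5 had medians of 21.6 to 24.5 RPKM, nearer to the light end than to the heavy end. Quartiles of the lightest class were wide, at 8.38 and 50.1 RPKM in the first total library of the Rpl10a line. Those of the class at or above 1 were 32.0 and 201.9 RPKM there, so the ranges overlapped. Over transcripts, density on the log2(RPKM + 1) scale correlated with the contrast at r = 0.26 to 0.27 in the 6 libraries.

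**Figure D3:**
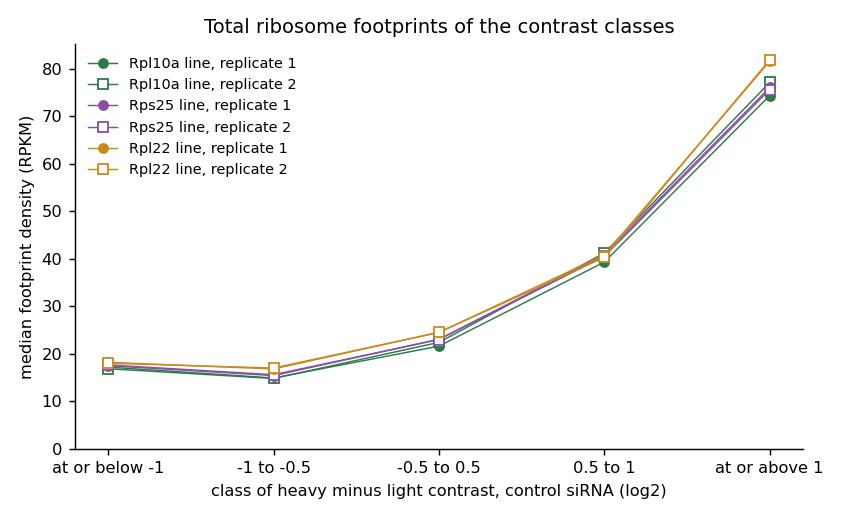
Median total footprint density (y axis, RPKM, linear) of the 5 classes of the heavy minus light contrast (x axis, log2), with 1 line per total Ribo-Seq library and a filled or open marker for replicate 1 or 2. The 6 libraries run from 74.3 to 81.8 RPKM in the class at or above 1, and from 16.9 to 18.2 RPKM in the class at or below −1.

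The footprint difference was smaller among transcripts of like read signal in the polysome pools. Within quintiles of mean level, the medians of the heaviest and the lightest class were again compared over the 6 libraries. Their difference was 0.28 in the lowest quintile, 1.04, 1.19 and 1.33 in the next ones, and 1.18 in the highest. It had the same direction in all 5 quintiles and in each of the 3 lines. In the lowest quintile, the Rpl10a line had 10.2 RPKM in the heaviest class (60 transcripts) and 7.09 RPKM in the lightest (155 transcripts). In the highest quintile it had 258.5 RPKM (347 transcripts) and 119.0 RPKM (182 transcripts). Restricting the comparison to the 7263 transcripts listed in all 3 footprint tables gave 1.91.

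Ordering by footprints instead describes the same relation from the other side, without matching for read signal. Of the 1617 transcripts in the highest level quintile, 1140 lay in the highest footprint quintile of the Rpl10a line. Among the 1618 transcripts with the lowest footprint density in the Rpl10a line, 159 (9.83%) were called heavier and 565 (34.9%) lighter in the polysome pools, against 28.0% and 26.4% of all transcripts. Among the 1617 with the highest density, 771 (47.7%) were called heavier and 292 (18.1%) lighter. With quintiles from the Rps25 and Rpl22 lines, the highest quintile had 48.2% and 48.9% called heavier and 17.9% and 17.0% lighter. The median contrast went from −0.32 in the lowest to 0.34 in the highest quintile of the Rpl10a line, and from −0.15 to 0.19 under quantile normalization.

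**Figure D4:**
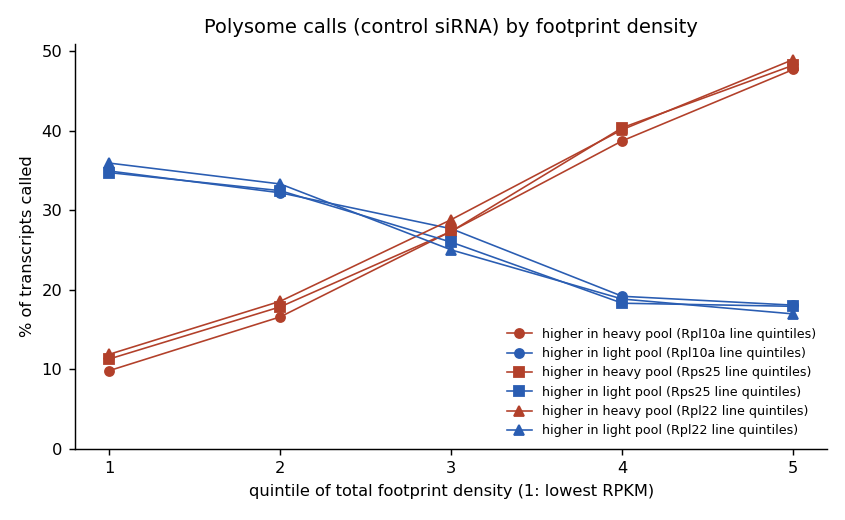
Share of transcripts called higher in the heavy or in the light pool under control siRNA (y axis, %) by quintile of total footprint density (x axis, 1 is the lowest), with quintiles formed separately in the 3 tagged lines (marker shapes). In the Rpl10a line heavy calls go from 9.83% to 47.7%, and light calls from 34.9% to 18.1%.

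The very top of the footprint order did not follow that slope. The 100 transcripts with the highest density in the Rpl10a line, a number chosen after the values were seen, had a median of 3040 RPKM. Of these, 35 were called heavier and 20 lighter, next to 28.0% and 26.4% of all transcripts. By the Rps25 line the counts were 30 and 18, and by the Rpl22 line 28 and 24, so heavy calls were near the share of all transcripts. Their median contrast was 0.20, 0.16 and 0.12 for the 3 lines, below the 0.34, 0.34 and 0.36 of the whole highest quintile.

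The strongly light group was mixed by footprints. Of the 121 transcripts at or below −2, 25 lay in the lowest and 40 in the highest footprint quintile of the Rpl10a line, with 22, 16 and 18 between them. The Rps25 line had 24 in the lowest and 39 in the highest of 115 listed, and the Rpl22 line 30 and 35 of 110 listed. The highest quintile thus held the most in each line, where a quintile holds about 1 in 5 of all transcripts. The lowest quintile was near that share in the Rpl10a and Rps25 lines and above it in the Rpl22 line. Their densities ran from 3.66 to 6485 RPKM in the Rpl10a line, with a median of 26.3. The 20 strongly heavy transcripts ran from 76.4 to 2482 RPKM, with a median of 560.7, and 19 of them lay in the highest quintile.

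Strongly light transcripts with high read signal lay less often in the highest footprint quintile than all transcripts of that level did. They lay more often in the lowest 2 footprint quintiles, though most were still in the highest. These differences were not tested. Of the 57 in the highest level quintile, 34 lay in the highest footprint quintile of the Rpl10a line while 1 lay in the lowest and 6 in the next. Of all 1617 transcripts of that level quintile, 1140 lay in the highest footprint quintile, 7 in the lowest and 27 in the next. In the Rps25 line the 57 had 33 in the highest, 1 in the lowest and 8 in the next, and in the Rpl22 line 32, 7 and 7. On the heavy side, 300 of the 347 transcripts in that level quintile with a contrast at or above 1 lay in the highest footprint quintile and 0 in the lowest 2 in the Rpl10a line. Densities of at least 1000 RPKM were found for 11 of the 57 (19.3%) and for 12.4% of the other 1560 transcripts of the quintile, a difference that was not tested. The quartiles of the 57 were 37.0 and 639.2 RPKM, against 80.5 and 413.0 RPKM for the others, so the group reached further both ways.

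The named light transcripts belonged to the sparsely footprinted kind. uc008nzf.1 had 5.2 and 2.5 RPKM in the total libraries of the Rpl10a line, 3.2 and 9.2 in the Rps25 line and 2.0 and 7.9 in the Rpl22 line, at or under the 5.10th percentile of transcripts in each. The replicates of this transcript scattered by up to several fold. uc008azq.2 had 10.2 and 8.0, 10.3 and 10.1, and 6.5 and 6.4 RPKM in the same order, between the 6.66th and the 21.8th percentile. The named heavy transcripts lay high: uc012dmm.1 had 342.8 and 337.1, 374.6 and 362.0, and 468.8 and 433.3 RPKM, at or above the 93.9th percentile in each line. uc009ffc.2 had 74.1 and 78.7, 62.7 in both, and 91.2 and 93.2 RPKM, between the 72.0th and the 79.0th percentile.

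Listing in the footprint tables was more frequent on the heavy side. All 8084 transcripts were in the table of the Rpl10a line, so that table cannot show such a relation. In the table of the Rps25 line were 98.8% of the transcripts at or above 1 and 91.5% of those at or below −1, against 95.3% of all. In that of the Rpl22 line were 98.8% and 89.3%, against 92.6% of all. The class between −1 and −0.5 was listed least often there, at 87.7%. What the authors filtered on is not given in the sources at hand.

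The same pools under the Rpl10a siRNA gave the contrast a second time in other libraries. Each siRNA was fitted on its own 4 libraries, so that no sample was shared. The control fit called 2383 transcripts (29.5%) heavier and 2398 (29.7%) lighter, and the Rpl10a siRNA fit called 2104 (26.0%) and 1550 (19.2%) (limma, adjusted p below 0.05). In the joint fit of 8 libraries, the Rpl10a siRNA counts were 2556 (31.6%) and 1784 (22.1%). By the separate fits, heavier in both were 1440, which is 60.4% of the control list and 68.4% of the other list. Lighter in both were 1266, which is 52.8% and 81.7%. Only 2 transcripts called heavier with control siRNA were called lighter with Rpl10a siRNA, and 17 the reverse. All 121 transcripts at or below −2 and all 20 at or above 2 were called in the same direction there.

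The strongly heavy transcripts stood less far out under the Rpl10a siRNA. The median contrast of all transcripts was 0.16 there, against −0.04 with control siRNA, so contrasts as a whole lay higher. Transcripts at or above 1 with control siRNA had a median contrast of 0.69 and 0.83 in the replicates of the Rpl10a siRNA, and those at or below −1 had −1.14 and −1.09. These classes were chosen on the control values, which by itself draws a second measurement toward the middle. In the same classes chosen by control replicate 1, the median in control replicate 2 was 1.29 and −1.17, and the median with Rpl10a siRNA was 0.79 and −1.04. On the heavy side the median with Rpl10a siRNA was thus below that of control replicate 2, and the cause was not tested. On the light side the move from −1.17 to −1.04 was smaller than the shift of all transcripts. A direct test of the difference between the siRNAs (limma) called 231 transcripts (2.86%) toward heavy and 289 (3.57%) toward light with Rpl10a siRNA, 520 in all (6.43%). With library medians aligned the counts were 112 and 412, and with quantile normalization 81 and 187. Leaving out any 1 of 7 libraries ended all of these calls, and leaving out Rpl10a heavy replicate 2 raised them to 1201 toward heavy and 869 toward light.

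The named transcripts kept their sides under the Rpl10a siRNA. uc012dmm.1 stood at 115.5 and 102.3 RPM in the light and 380.7 and 399.3 RPM in the heavy libraries. uc009ffc.2 stood at 70.2 and 87.0 RPM and at 131.7 and 180.8 RPM. uc008azq.2 stood at 129.4 and 112.0 RPM in the light and 13.3 and 10.7 RPM in the heavy libraries, and uc008nzf.1 at 213.2 and 260.9 RPM and at 17.9 and 27.8 RPM. The heavy values of both light-sided transcripts overlapped those with control siRNA, while their light values were lower than the light values with control siRNA. Heavy and light libraries did not overlap for any of the 4 transcripts, which were chosen for lacking overlap with control siRNA. With control siRNA, 38.9% of all transcripts lacked overlap toward heavy and 41.5% toward light. The shares with Rpl10a siRNA are not given here.

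**Figure D5:**
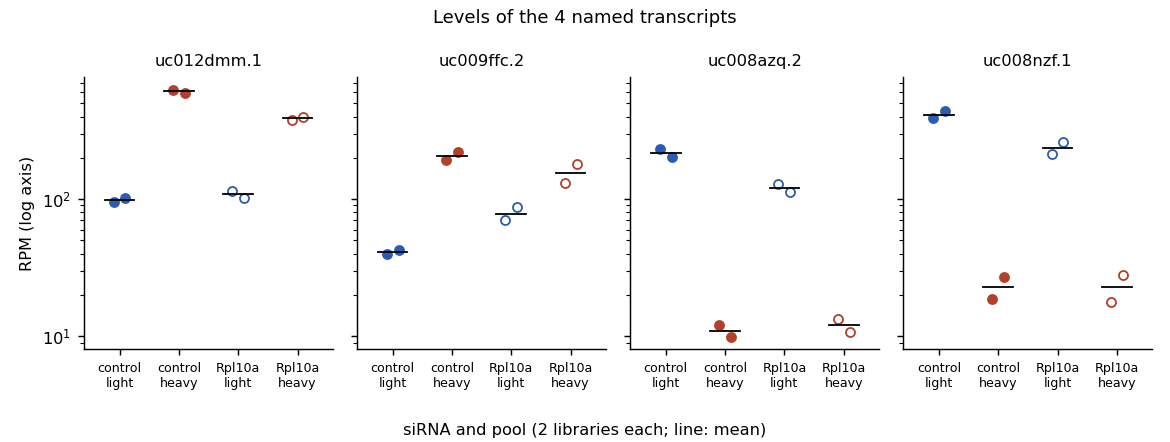
RPM (y axis, log scale) of the 4 named transcripts in each of the 8 RNA-seq libraries by siRNA and pool (x axis), with filled points for control siRNA, open points for Rpl10a siRNA and a line at the mean of each pair. Light-pool values of uc008azq.2 are 232.6 and 202.2 with control and 129.4 and 112.0 with Rpl10a siRNA, while its heavy-pool values lie between 9.9 and 13.3.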

How the data were processed

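Polysome fractions were sequenced with a stranded mRNA kit in paired reads of 75 bp, per the labels' protocols, which also name rRNA depletion. The authors deposited 1 value per transcript and library, called RPM for the RNA-seq and RPKM for the Ribo-Seq libraries per the file headers, rounded to 1 decimal. The deposited RPM did not sum to 1000000, so it was treated as a scaled signal. The submitters' processing notes name cutadapt, Bowtie2, STAR and mm10, without versions. Whole reads could not be recovered, depth is unknown and no count test was run.

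Contrasts came from limma 3.58.1 (R 4.3.3) on log2(RPM + 1) of the 8 RNA-seq libraries, with moderated variances, a variance trend and no filter, two-sided. A transcript was called when its Benjamini-Hochberg adjusted p was below 0.05. The fit was tested on simulated data. Class and quintile values were computed in Python 3.11.15 with pandas 2.3.3. Footprint values are means of 2 total libraries on the log2(RPKM + 1) scale unless given per library. Quintiles of level use the mean of log2(RPM + 1) over the control libraries.

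Named transcripts are the 2 highest and 2 lowest called contrasts at or above the median level without overlap between pools. Gene lists set for named genes were not used, as no identifier could be paired with a gene. Members and lists were chosen with earlier results of these data known. Alternatives covered pseudocount, low-value filter, scaling, libraries, variance trend, a fold threshold and a replicate block.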

Additional observations from a re-analysis of the deposited data

Results flagged for a closer look

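The heavy minus light contrast differed between the control and the Rpl10a siRNA for 520 of 8084 transcripts in a direct test (limma, adjusted p below 0.05; 231 higher and 289 lower with Rpl10a siRNA). Among the named transcripts, the difference (Rpl10a siRNA minus control) was −0.79 for uc012dmm.1 (SE 0.16, limma adjusted p = 0.0353), −1.33 for uc009ffc.2 (SE 0.25, limma adjusted p = 0.0336) and 0.96 for uc008azq.2 (SE 0.23, limma adjusted p = 0.0469). For uc008nzf.1 it was 0.80 (SE 0.33, limma adjusted p = 0.146), which passed the threshold in 2 of 20 other settings. The 4 transcripts were chosen at the ends of the control contrast, whose libraries also enter this difference. The calls of the first 3 were lost in 10, 9 and 12 of 20 other settings. Leaving out any 1 of the 7 libraries apart from Rpl10a heavy replicate 2 was among these settings for each. The directions of all 4 differences were the same in the 20 settings.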

How the results depend on the processing

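In the control contrast, 21 of 22 alternatives left the counts within 1.5 times of 2266 and 2134, at 1789 to 2718 toward heavy and 1517 to 2890 toward light. Against a 1.5-fold change, counts fell to 812 and 652, with 181 and 356 for the Rpl10a siRNA contrast and 0 and 0 for the difference between siRNAs. Medians aligned gave 112 toward heavy and 412 toward light for that difference, quantile normalization 81 and 187, and no variance trend 0 and 0; the cause was not tested. Without single libraries it ranged from 0 to 1201 and from 0 to 869. Without adjustment, 2462 transcripts had a limma p below 0.05 for that difference, and 202 to 2443 in the 9 settings with no call. The median contrast of all transcripts, −0.04, turned to 0.023 with medians aligned.

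With a replicate block, the control contrast gave 2629 and 2741 (number as block), 2696 and 2862 (siRNA and number) and 2718 and 2890 (control libraries alone). The difference between siRNAs gave 1463 and 1057, and 1801 and 1179, and that of uc008nzf.1 passed the threshold with both blocks (limma adjusted p = 0.0059 and 0.000785). Deviations from the pool means of light and heavy libraries with the same number had r = 0.526 with control and 0.621 with Rpl10a siRNA. With 2 pairs each and no label for what a number shares, the numbers were not taken to pair samples. A count test on recovered reads was not run. Depth is unknown, so the limit it sets on low transcripts was not estimated.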

Other observations

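The pools differed in their 10 leading transcripts, while longer lists of leaders were mostly shared. The 10 transcripts with the most read signal in the light pool, a number chosen after the values were seen, held 9.73% and 9.67% of the light libraries and 2.08% and 2.23% of the heavy ones. All 10 were called lighter, next to 26.4% of all transcripts, with contrasts from −3.70 to −1.15. Their choice on light-pool values favours both. The first of them stood at 13872.9 and 13905.5 RPM in the light and 2133.5 and 2533.7 RPM in the heavy libraries. The 10 with the most signal in the heavy pool held 4.35% and 4.50% of the heavy and 3.49% and 3.53% of the light libraries, and only 1 transcript was in both lists. Of those 10 heavy-pool leaders, 5 were called heavier and 1 lighter, next to 28.0% and 26.4% of all transcripts. Their choice on heavy-pool values favours heavy calls. With Rpl10a siRNA, the 10 light-pool leaders held 7.64% and 8.25% of the light libraries and 2.31% and 2.69% of the heavy ones. Among the 500 leaders of each pool, 324 were shared.

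Ribosomes captured through a tagged protein showed small differences between the contrast classes. In the RPS25 capture, the median log2 ratio to the mean of the total libraries was 0.11 and 0.07 in the 2 capture libraries for transcripts at or below −1, and −0.07 and −0.04 for those at or above 1. The RPL10A capture had 0.05 and 0.06 against −0.02 and −0.04. In the RPL22 capture the order was the other way, with −0.08 and −0.04 against 0.04 and 0.01. The 3 lines were normalized separately, and the differences between them were not tested.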
